A study of Mus musculus with 6 samples.

Results

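Potassium channel genes were taken as all genes of the HTSeq count table whose symbol starts with Kcn and goes on with lower-case letters and a closing number. The rule found 80 of the table's 17551 genes. By symbol, 36 encode voltage-gated subunits, 12 inward rectifiers (Kcnj), 11 two-pore channels (Kcnk), 8 calcium-activated channels or their beta subunits (Kcnn and Kcnm), 3 sodium-activated or Slo3 channels (Kcnt and Kcnu) and 10 auxiliary subunits (Kcnab, Kcne and Kcnip). RNA came from mouse neurospheres on a C57BL/6 background, which are floating cultures of neural progenitors grown with N2, B27, EGF and FGF. The 3 G328V libraries (replicates 1, 2 and 3) carry the genotype label ACVR1 G328V and are named NPAC by the submitters. The 3 WT libraries (replicates 1, 3 and 70A) carry the label ACVR1 WT and are named NP. ACVR1 is a type I receptor of bone morphogenetic proteins. What the names NP and NPAC stand for, how the variant was introduced and which animals gave each culture are points not given in the sources used here, and a p-value therefore reflects only how much these libraries vary, which may be technical.

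Potassium channels let potassium leave or enter the cell down its electrochemical gradient and so set the membrane potential. Voltage-gated channels open on depolarization, inward rectifiers and two-pore channels carry resting conductances, and calcium-activated channels open when intracellular calcium rises. Auxiliary subunits change the gating, trafficking or abundance of the pore-forming subunits. In neural tissue, Kcnj10 serves potassium uptake by glia, and channels such as Kcnh1, Kcnh2 and Kcnn4 have been studied in the proliferation and migration of glioma cells.

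Total counts per library ranged from 115953495 to 191115532. Levels are CPM, counts divided by the library's total and multiplied to a common scale, with totals adjusted by TMM factors, and differences are log2 values of G328V minus WT. The groups were also separated by the sex-linked genes Xist and Ddx3y. Xist was at 444 to 795 CPM in G328V and 0.250 to 1.18 CPM in WT. Ddx3y was at 0 to 0.0326 CPM in G328V and 17.7 to 51.0 CPM in WT. Genotype and sex of the cells therefore cannot be told apart. Only 1 of the 80 genes, Kcnd1, lies on the X chromosome, but this limit holds for all 80. Acvr1 had a log2 difference of 2.29 (standard error 0.55), its WT libraries all below the G328V ones. WT replicate 1 stood apart from the rest in Olig1 and Olig2, transcription factors of the oligodendrocyte lineage, with 615 and 416 CPM and no more than 1.07 CPM in any other library, and comparisons are given with and without it. In bulk RNA, fewer cells of a type and less RNA per cell cannot be told apart.

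None of the potassium channel genes passed edgeR's quasi-likelihood test over 14643 genes at an adjusted p under 0.05, where 0.00% of all genes passed. Of the 80 genes, 59 passed the filter on low counts and were tested, 28 with a positive and 31 with a negative difference, where 49.7% of all genes were positive. With limma-voom 64.4% of the 59 were positive, where 53.4% of all genes were, against 47.5% with edgeR. Their median log2 difference by edgeR was -0.16, against -0.0039 over all tested genes. At an unadjusted p under 0.05 edgeR counted 3 higher (Kcna7, Kcnj12 and Kcnq3) and 1 lower (Kcnk2), which is 5.08% and 1.69% of those tested, against 1.88% and 2.17% of all genes. These 4 are 6.78% of the 59, where 4.06% of all genes were counted in either direction. The groups did not overlap in 5 genes higher in G328V (Kcna7, Kcnh5, Kcnj12, Kcnn3 and Kcnq3) and in 1 lower (Kcnk2). These 6 are 10.2% of the 59, close to the 9.70% of all tested genes whose groups did not overlap (5.25% higher, 4.45% lower). Kcna7 had 0 counts in each WT library and passed the filter through its G328V counts alone. Its place among the genes counted here therefore rests on the group in which it was higher. Without the filter, the groups did not overlap in 6 of the 80 genes as higher and 2 as lower, with Kcnk9 and Kcnip2 joining. Of all 17551 genes without the filter, 8.48% had groups that did not overlap in either direction. DESeq2, run as an alternative, called 1 potassium channel gene, Kcnq3 as higher, of 65 with an adjusted p (1.54%), against 1.05% of all genes in either direction and 0.569% as higher. The median standard error of the 59 log2 differences was 2.09, with a range of 0.614 to 3.56, so differences of several-fold were not detectable for most of these genes.

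**Figure D1:**
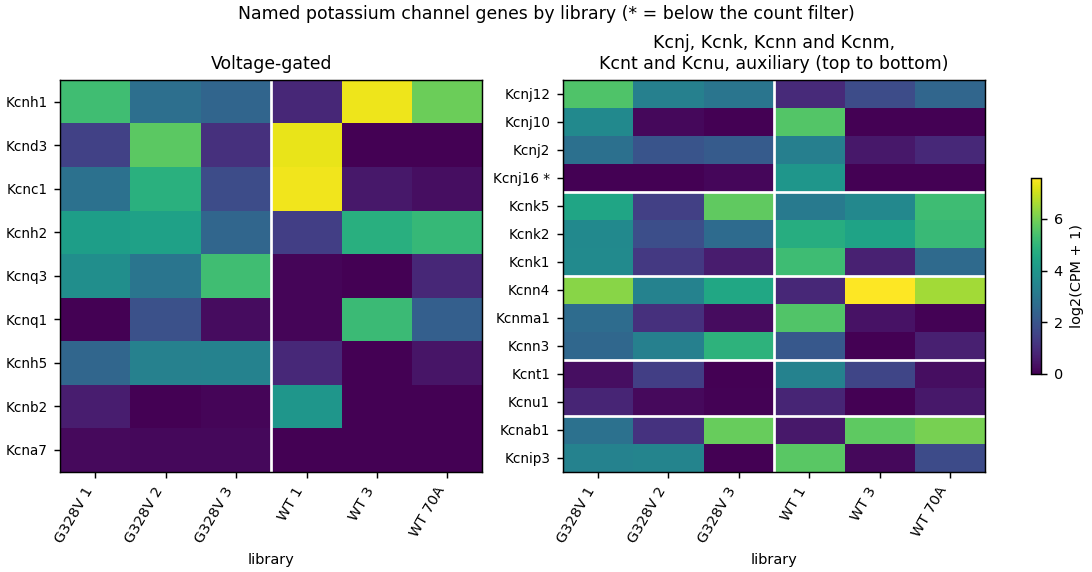
Level of 23 named potassium channel genes, as log2(CPM + 1), in each of the 6 libraries (columns), ordered by class and mean level. An asterisk marks Kcnj16, which is below the count filter, and the white vertical line separates G328V from WT. Most genes with high values are bright in 1 or a few libraries, as Kcnd3 and Kcnc1 are in WT replicate 1.

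Kcnq3 was the only voltage-gated gene that DESeq2 called with all libraries. It encodes a subunit of the channel behind the M-current, a slow brake on firing. Its level was 12.4, 6.71 and 37.6 CPM across G328V (always in the order of replicates 1, 2 and 3) against 0.0731, 0 and 0.804 CPM across WT (replicates 1, 3 and 70A). Every G328V library was above every WT library. Group means were 18.9 ± 16.4 CPM for G328V and 0.293 ± 0.445 CPM for WT (SD, n = 3 each). Its log2 difference came to 6.01 (standard error 2.08), and edgeR's adjusted p over all genes was 0.997. DESeq2's adjusted p was 0.0277. It was 0.108, 0.0553 and 0.283 without G328V replicates 1, 2 and 3, 0.0539 without WT replicate 1, and 0.00177 and 3.23e-06 without WT replicates 3 and 70A. Kcnq3 spans chromosome 15 from 65986387 to 66286642 (GRCm38, minus strand).

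Kcnh5, which encodes a channel of the ether-a-go-go family, was also higher in each G328V library. It measured 4.72, 9.18 and 9.28 CPM across G328V against 0.853, 0 and 0.339 CPM across WT. Its log2 difference came to 4.28, standard error 1.84 (edgeR adjusted p = 0.997, DESeq2 adjusted p = 0.197). Kcnh5 was thus expressed at a like level in the 3 G328V libraries, from 4.72 to 9.28 CPM, whereas Kcnq3 varied more widely. Kcna7, a channel of the Shaker family, had 26, 14 and 20 counts in G328V and 0 in each WT library. Taking 3 counts as the limit for WT as a whole, it was at least 19.9-fold higher in G328V, but its mean level was only 0.126 CPM there.

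The other ether-a-go-go genes named here, Kcnh1 and Kcnh2, overlapped between groups. Kcnh1 had the highest mean level of the voltage-gated class per length and ranged from 0.796 CPM in WT replicate 1 to 169 CPM in WT replicate 3. Its G328V libraries held 37.5, 5.79 and 4.55 CPM and WT replicate 70A held 58.2 CPM. Thus WT held both the lowest and the highest library of Kcnh1, and the log2 difference of this gene was -2.25 (standard error 1.65). Leaving out WT replicate 3 gave -0.90, and leaving out G328V replicate 1 gave -3.88. Kcnh2, which encodes the channel known as hERG in the heart, measured 18.0, 19.4 and 4.68 CPM across G328V against 1.66, 26.6 and 32.9 CPM across WT. WT replicate 1 was again the lowest library of Kcnh2, and the log2 difference of this gene was -0.54 (standard error 1.05). Leaving out each library gave -1.10 (without WT replicate 1) to -0.021 (without WT replicate 70A).

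Another 3 voltage-gated genes, all known from neurons, were highest in WT replicate 1. Kcnd3, a subunit of transient A-type channels, measured 1.79, 50.8 and 1.08 CPM across G328V against 160, 0.00568 and 0.0115 CPM across WT. WT replicate 1 therefore held the most and the other WT libraries the least, with 1 and 2 counts. Kcnc1, a channel of fast-spiking neurons, measured 6.16, 27.5 and 2.42 CPM across G328V against 173, 0.415 and 0.224 CPM across WT, in the same arrangement. Kcnb2, a delayed rectifier, had 96.1% of its summed CPM in WT replicate 1, at 14.8 CPM, and 0 counts in G328V replicate 2 and in the other WT libraries. The log2 differences of Kcnd3, Kcnc1 and Kcnb2 were -1.58, -2.27 and -4.62 with standard errors of 3.03, 2.32 and 3.56. The edgeR adjusted p was 0.997 for each of the 3.

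Kcnq1, a channel of heart and epithelia, was instead concentrated in WT replicate 3. It measured 0, 2.71 and 0.190 CPM across G328V against 0.0813, 34.9 and 3.95 CPM across WT, so that 83.4% of its summed CPM came from 1 library. Its log2 difference came to -3.75 (standard error 2.63), and -1.11 without WT replicate 3 and -7.08 without G328V replicate 2. Exons of Kcnq1 and of its antisense transcript Kcnq1ot1 share 121 bases in the annotation, and strand use in counting was not given in the sources used here. Kcnq1ot1 lay at 37.5 CPM in WT replicate 3, its lowest library, and at 55.6 to 84.5 CPM elsewhere.

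**Figure D2:**
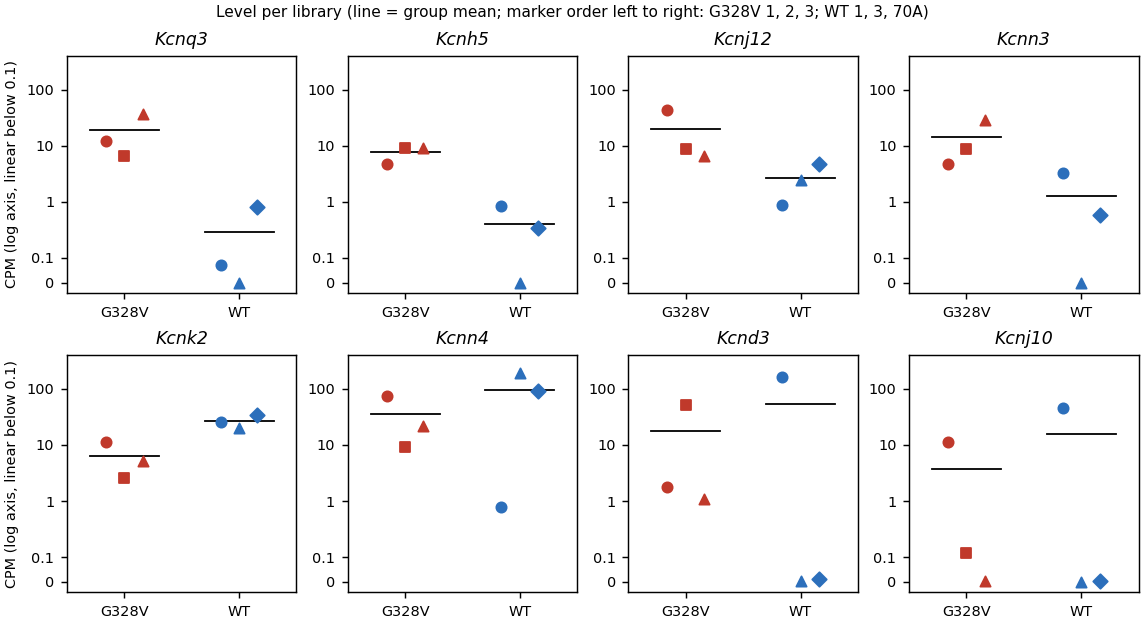
Level of 8 potassium channel genes in CPM, on an axis that is logarithmic above 0.1 and linear below. Each point is a library and each line a group mean. Kcnq3, Kcnh5, Kcnj12 and Kcnn3 lie higher in each G328V library and Kcnk2 lower, while WT replicate 1 (leftmost blue point) sets the range of Kcnn4, Kcnd3 and Kcnj10.

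Of the 12 inward rectifier genes 9 were tested, 6 with positive and 3 with negative differences. Kcnj12, a strong inward rectifier, measured 44.4, 8.87 and 6.68 CPM across G328V against 0.886, 2.42 and 4.70 CPM across WT. The groups did not overlap, with G328V replicate 1 far above the others. Its log2 difference came to 2.91, standard error 1.02 (edgeR adjusted p = 0.997, DESeq2 adjusted p = 0.159). Without G328V replicate 1 it was 1.54. Kcnj2, a related strong rectifier, measured 6.00, 2.97 and 3.56 CPM across G328V against 8.68, 0.409 and 0.822 CPM across WT, and its groups overlapped through WT replicate 1 alone.

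The glial inward rectifiers Kcnj10 and Kcnj16, which form a channel together, were highest in WT replicate 1. Kcnj10 measured 11.1, 0.116 and 0.00544 CPM across G328V against 46.5, 0 and 0.00574 CPM across WT. WT replicate 1 and G328V replicate 1 thus held nearly all of its 7654 counts. Kcnj16 had 1853 counts in WT replicate 1, 16 in G328V replicate 3 and 0 or 1 in each of the rest, so that 99.4% of its summed CPM came from WT replicate 1. It did not pass the count filter, which asks for the minimum in 3 libraries. Kcnj16 and Kcnj2 are neighbours on chromosome 11, from 110968033 to 111027968 and from 111066164 to 111076821 (GRCm38), yet Kcnj2 had counts in all 6 libraries.

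Of the 11 two-pore genes 7 were tested, 2 with positive and 5 with negative differences. Kcnk2, which encodes a channel opened by stretch and lipids, was the only gene of the 59 whose G328V libraries all lay below the WT ones. It measured 11.2, 2.53 and 5.25 CPM across G328V against 25.6, 20.3 and 34.5 CPM across WT. Group means were 6.34 ± 4.45 CPM for G328V and 26.8 ± 7.14 CPM for WT (SD, n = 3 each). Its log2 difference came to -2.08 (standard error 0.61), the smallest standard error among the 59, but over all genes it missed edgeR's threshold (adjusted p = 0.997, unadjusted p = 0.0139). DESeq2 gave -2.10 with an adjusted p of 0.106, which was 1.70e-04 without G328V replicate 1 and 0.0749 to 0.323 without each of the others. In 12.2% of its exon bases Kcnk2 overlaps an antisense gene, A430027H14Rik. Kcnk2 spans chromosome 1 from 189207930 to 189402273 (GRCm38, minus strand).

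Kcnk5, an alkaline-activated background channel, had the highest mean level of its class per length and measured 21.1, 1.74 and 52.7 CPM across G328V against 7.80, 10.7 and 37.0 CPM across WT. Both groups covered a wide range, and its log2 difference came to 0.44 (standard error 1.16). Kcnk1, a weakly conducting background channel, measured 11.4, 1.40 and 0.489 CPM across G328V against 36.4, 0.608 and 5.22 CPM across WT, highest in WT replicate 1.

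Of the 8 calcium-activated genes 7 were tested, 2 with positive and 5 with negative differences. Kcnn3, a small-conductance channel, measured 4.84, 8.94 and 29.1 CPM across G328V against 3.29, 0 and 0.574 CPM across WT. The groups did not overlap, although G328V replicate 1 lay only just above WT replicate 1. On the log2 scale the difference was 3.47, standard error 2.02 (edgeR adjusted p = 0.997, DESeq2 adjusted p = 0.706). Kcnn4, the intermediate-conductance channel, measured 75.3, 9.22 and 21.96 CPM across G328V against 0.780, 192 and 91.9 CPM across WT. Its WT libraries held both the lowest and the highest values, and its log2 difference came to -1.42 (standard error 1.57). Leaving out WT replicate 3 gave -0.40, and leaving out G328V replicate 1 gave -2.61.

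Kcnma1, the pore subunit of the large-conductance channel, was highest in WT replicate 1, the library where Kcnn4 was lowest. It measured 5.41, 1.09 and 0.201 CPM across G328V against 45.1, 0.290 and 0.0345 CPM across WT, with 86.5% of its summed CPM in WT replicate 1. Its beta subunit gene Kcnmb4 was also highest in WT replicate 1, at 7.87 CPM, and at 0.857 CPM or less elsewhere. The antisense gene Kcnmb4os2 covers 20.8% of the exon bases of Kcnmb4.

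For reference, the 250 bases before the annotated start are shown for 3 of the genes whose groups did not overlap. These were Kcnh5 and Kcnn3 as higher and Kcnk2 as lower in G328V. Kcnq3 had no listed promoter, and Kcnj12 and Kcna7 are not shown. The stretches are RefSeq sequences of GRCm38.p6, on the strand of the gene, and for Kcnk2 the most upstream of 4 listed starts. The positions are chr12:75177333-75177582 (minus strand) for Kcnh5, chr3:89519914-89520163 (plus strand) for Kcnn3 and chr1:189402274-189402523 (minus strand) for Kcnk2. Capitals mark GGCGCC, a GC-rich element that SMAD proteins of the BMP branch can bind, which reads the same on both strands.
Kcnh5: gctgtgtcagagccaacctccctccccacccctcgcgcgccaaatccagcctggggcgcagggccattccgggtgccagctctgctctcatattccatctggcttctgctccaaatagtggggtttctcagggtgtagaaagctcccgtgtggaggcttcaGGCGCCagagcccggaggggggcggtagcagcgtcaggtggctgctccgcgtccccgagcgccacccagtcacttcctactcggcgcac
Kcnn3: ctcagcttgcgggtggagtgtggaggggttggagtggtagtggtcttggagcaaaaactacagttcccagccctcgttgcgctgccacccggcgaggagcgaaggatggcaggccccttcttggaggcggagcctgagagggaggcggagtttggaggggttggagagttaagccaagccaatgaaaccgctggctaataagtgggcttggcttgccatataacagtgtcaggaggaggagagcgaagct
Kcnk2: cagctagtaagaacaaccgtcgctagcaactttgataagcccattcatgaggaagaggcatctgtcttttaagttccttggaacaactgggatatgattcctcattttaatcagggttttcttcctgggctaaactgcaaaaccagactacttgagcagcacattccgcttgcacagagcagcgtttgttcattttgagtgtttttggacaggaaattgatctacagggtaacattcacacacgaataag
The element occurs once in the Kcnh5 stretch and not in the other stretches shown. It was present in 10 of the 57 potassium channel genes with a listed promoter (17.5%) and in 9.57% of 27025 promoters of the same length. The potassium channel promoters also had a higher median GC content, 60% against 52%, so the shares are not matched for base composition. The E-box motifs CAGCTG and CACGTG, also the same on both strands, were searched apart from it and occurred in none of the 3 stretches shown, and in 21.1% and 7.02% of the potassium channel promoters against 12.7% and 6.04% of all.

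In the sodium-activated and Slo3 class, Kcnt1, a sodium-activated channel, measured 0.210, 1.67 and 0.00544 CPM across G328V against 9.28, 2.00 and 0.207 CPM across WT. Kcnu1, known from sperm, stayed under 1 CPM in every library. Their log2 differences were -2.61 and -0.33 with standard errors of 2.05 and 2.04. WT replicate 1 held 69.4% of the summed CPM of Kcnt1, whose difference was -0.84 without it and -5.14 without G328V replicate 2.

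Of the 10 auxiliary genes 6 were tested, 3 in each direction. Kcnab1, a beta subunit of Shaker-family channels, measured 6.07, 1.16 and 56.3 CPM across G328V against 0.390, 51.3 and 64.1 CPM across WT. WT replicate 1 was the lowest library, as for Kcnn4 and Kcnh1. Kcnip3, a calcium sensor that binds A-type channels and is also known as a transcriptional repressor, measured 9.30, 9.77 and 0.0163 CPM across G328V against 49.6, 0.114 and 2.30 CPM across WT. It was highest in WT replicate 1, like the A-type subunit gene Kcnd3. The log2 differences of Kcnab1 and Kcnip3 were -0.87 and -1.45 with standard errors of 1.80 and 2.29. That of Kcnab1 was -3.42 without G328V replicate 3 and -0.29 without WT replicate 70A, and that of Kcnip3 was 2.37 without WT replicate 1.

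**Figure D3:**
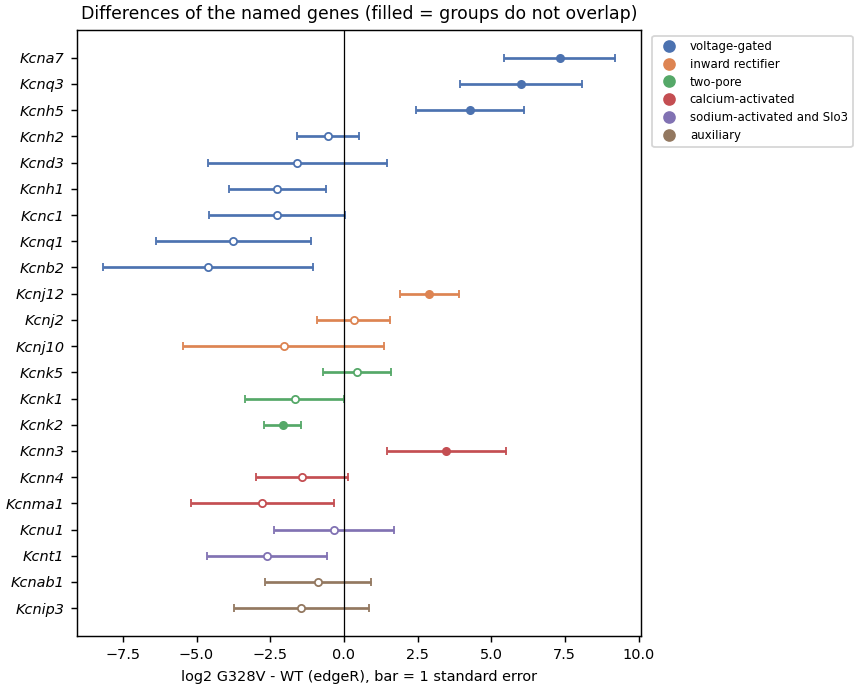
Log2 difference of G328V minus WT from edgeR for the 22 named genes that were tested, with 1 standard error on each side, coloured by class. Filled points are genes whose groups do not overlap: Kcna7, Kcnq3, Kcnh5, Kcnj12 and Kcnn3 on the positive side and Kcnk2 at -2.08. Kcna7 had 0 counts in WT, so its position depends on the fit.

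Levels between genes were compared per kilobase of annotated exons. Kcnn4 was highest, with a mean of 12.8 CPM per kilobase over the 6 libraries and a range of 0.152 to 37.6. Kcnk5 followed at 6.42 (0.510 to 15.5) and Kcnh1 at 6.27 (0.109 to 23.1). Kcnk1 and Kcnj12 stood at 4.14 and 4.12, Kcnd3 and Kcnc1 at 3.71 and 3.70, and Kcnh2, Kcnab1, Kcnk2, Kcnk13 and Kcnip3 at 3.55, 3.48, 3.35, 3.35 and 3.34. The ranges over libraries of neighbours in this order overlapped widely. Of the 80 genes, 5 reached 1 CPM in every library (Kcnab3, Kcnf1, Kcnh2, Kcnk2 and Kcnk5) and 29 stayed under 1 CPM in every library.

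How many potassium channel genes reached 1 CPM differed between libraries of the same group. G328V replicates 1, 2 and 3 had 32, 34 and 24 such genes, against 34, 16 and 21 for WT replicates 1, 3 and 70A. WT replicate 1 stood level with G328V replicate 2, while WT replicate 3 had the fewest, with 5 voltage-gated genes against 10 to 15 elsewhere. Summed over the 80 genes the level was 370.5, 280.3 and 353 CPM across G328V against 766, 539 and 401 CPM across WT. Kcnh1 and Kcnn4 made up most of the sum in WT replicate 3. Of the 59 tested genes, 33.9% had 0 counts in WT replicate 3, against 7.05% of all tested genes. In each other library their share with 0 counts was also above that of all genes, at 6.78% to 18.6% against 1.66% to 4.17%. Of the 59, 23 (39.0%) were highest in WT replicate 1, against 23.1% of all tested genes.

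**Figure D4:**
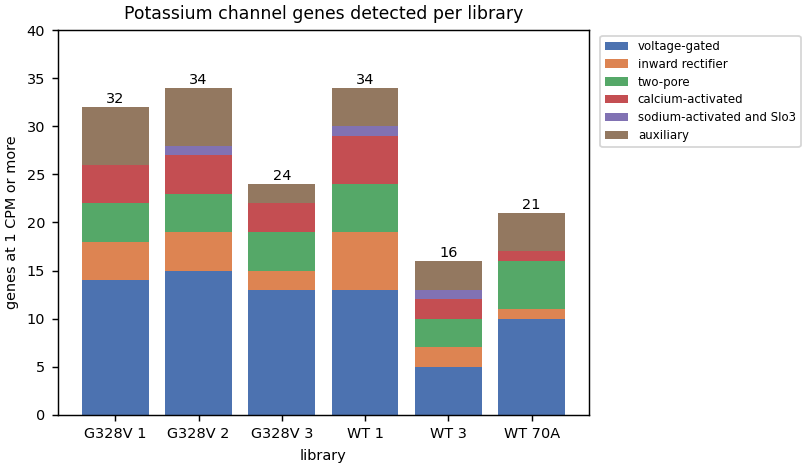
Number of the 80 potassium channel genes at 1 CPM or more in each library, stacked by class. WT replicate 1 stands at 34 beside G328V replicates 1 and 2 at 32 and 34, and WT replicate 3 is lowest at 16.

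The comparison between the groups depended on WT replicate 1. Without it, 64 potassium channel genes were tested, and their median log2 difference was 1.91, against -0.16 with all libraries. The median over all tested genes was 0.061 without it. Positive differences were found for 47 of the 64, where 54.1% of all genes were positive. Of the 59 genes in both fits, 17 changed sign, each from negative to positive. Sign changes thus made up 28.8% of these genes, against 19.6% of all genes. Among them Kcnd3 went from -1.58 to 10.9, Kcnj10 from -2.05 to 10.01, Kcnb2 from -4.62 to 8.05, Kcnc1 from -2.27 to 5.20 and Kcnma1 from -2.76 to 3.78. The WT libraries left held 3 counts of Kcnd3, 1 of Kcnj10 and 0 of Kcnb2, so these sizes depend on the fit and are not measured folds. For genes whose groups did not overlap with all libraries, whose direction leaving out a library cannot turn, the values without it were Kcnq3 at 5.53, Kcnh5 at 5.48, Kcnn3 at 5.61, Kcnj12 at 2.48 and Kcnk2 at -2.12.

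Groups without WT replicate 1 did not overlap for 15 genes higher and 7 lower in G328V, 23.4% and 10.9% of the 64, against 11.2% and 12.2% of all genes. Among the lower ones were Kcnk2, Kcnn4, Kcnq1 at -4.36 and Kcnh1 at -2.84. At an unadjusted p under 0.05 edgeR counted 7 higher and 3 lower, 10.9% and 4.69%, against 2.93% and 3.82% of all genes (6.75% in either direction). It called 0 at an adjusted p under 0.05, with a smallest adjusted p of 0.647. DESeq2 called 8 of them higher without WT replicate 1, where it called 2.89% of all genes higher. Among them were Kcna2, Kcnab2, Kcnc1, Kcnc4, Kcnh5, Kcnj2 and Kcnn3. Kcnq3 was not among these. Kcnd2 and Kcnv1 had 310 and 100 counts in WT replicate 1 and 0 in the other WT libraries. Without G328V replicate 1 DESeq2 called these 2 genes and Kcnk2, all lower (1.84% of all genes called), so the first 2 calls rest on WT replicate 1, and without G328V replicates 2 or 3 it called 0 (2.49% and 2.07% of all genes called). Without WT replicate 3 it called Kcne3, Kcnh5 and Kcnq3 (1.72% of all genes called), and without WT replicate 70A Kcnj12 and Kcnq3 (2.38%), all higher. Kcne3 had 399 counts in WT replicate 3 and 0 in the other WT libraries, so its call rests on leaving that library out.

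**Figure D5:**
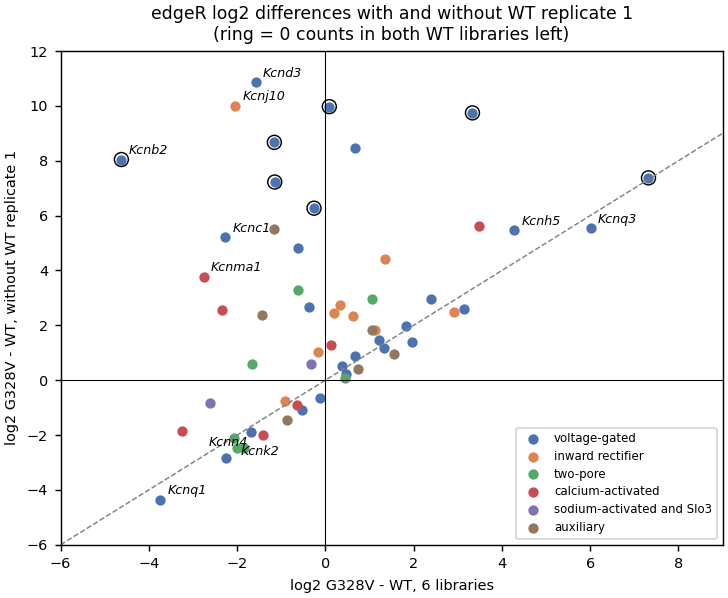
Log2 difference of each of 59 potassium channel genes from edgeR with all 6 libraries (x axis) and without WT replicate 1 (y axis), coloured by class, with the line of equality dashed. Points in the upper left, such as Kcnd3, Kcnj10 and Kcnb2, turned from negative to positive, and Kcnq3, Kcnh5, Kcnk2 and Kcnq1 stayed near the line.

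Summed markers of several cell types also set WT replicate 1 apart, but the genes of a list often did not move together. The 6 listed oligodendrocyte precursor markers found in the table summed to 1080 CPM there, against 50.01 and 105 CPM for the other WT libraries and 235, 207 and 17.4 CPM across G328V. Olig1 and Olig2, given above, made up most of it, whereas Sox10 and Pdgfra lay at 0.0569 and 9.65 CPM there, below the 65.2 and 102 CPM of G328V replicate 1. The 7 neural stem markers summed to 5247 CPM in WT replicate 1 and to 2315 to 3750 CPM elsewhere. Fabp7 at 1313 CPM and Nes at 963 CPM were highest there, whereas Sox2 at 178 CPM, Pax6 at 12.2 CPM, Prom1 at 68.8 CPM and Vim at 2712 CPM lay within the range of the other libraries. The 6 neuron markers in the table summed to 57.0 CPM there, to 8.08 and 6.92 CPM in the other WT libraries and to 14.4 to 34.4 CPM in G328V. Tubb3 alone gave 44.6 of the 57.0 CPM, and Rbfox3, Snap25, Syt1 and Stmn2 were higher in at least 1 other library. The 7 pericyte and smooth muscle markers had their lowest sum in WT replicate 1, at 2.85 CPM against 58.7 to 311 CPM elsewhere. Acta2, Tagln, Myh11 and Cnn1 had at most 0.292 CPM in each library. Of the rest, Anpep was lowest in WT replicate 1, at 0.0975 CPM. Pdgfrb and Rgs5 stood at 0.138 and 2.14 CPM there and were lower in at least 1 other library. The 7 astrocyte markers summed to 442 CPM in WT replicate 1 and to 43.5 to 396 CPM elsewhere. Gja1 gave 359.8 of the 442 CPM. Gfap was at 0.0731 CPM in WT replicate 1, at 0 in the other WT libraries and at 10.05 CPM in G328V replicate 1, and Aldh1l1 had 8.42 CPM in WT replicate 1 against 104 CPM for WT replicate 3. The 4 ependymal markers in the table summed to 13.3 CPM in WT replicate 1, of which Foxj1 gave 11.9 CPM, and to at most 3.32 CPM elsewhere. Microglial markers summed to at most 4.47 CPM, and endothelial ones to at most 39.5 CPM, in any library. Myelin markers were highest in G328V replicate 1, at 88.9 CPM, and neural crest and Schwann markers as well, at 243 CPM. The part of these cell types in the channel levels was not tested.

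A list of 45 partners of potassium channels held 36 tested genes, with 16 positive and 20 negative differences and a median of -0.12. None passed edgeR's or DESeq2's adjusted threshold, and 2 in each direction had an unadjusted edgeR p under 0.05, against the 1.88% and 2.17% of all genes given above. Values are given for 3 of these. Amigo2, a neuronal adhesion protein, measured 1.14, 3.20 and 7.02 CPM across G328V against 23.4, 29.1 and 10.2 CPM across WT. Its relative Amigo1, whose protein associates with voltage-gated channels, lay the other way, with 18.7, 53.9 and 16.8 CPM across G328V against 14.3, 9.64 and 9.51 CPM across WT. Stk39, a kinase that regulates chloride cotransporters, measured 84.2, 23.0 and 75.5 CPM across G328V against 19.3, 1.72 and 15.8 CPM across WT. In these 3 genes the groups did not overlap. Of the 36 tested partners the groups did not overlap in 3 as higher and 2 as lower, against 5.25% and 4.45% of all tested genes.

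The 21 genes below the filter had 8 to 1871 counts over all libraries. Among them Kcnip2, another sensor of A-type channels, had 0 counts in each G328V library and 6, 85 and 12 in WT, so that 85 of its 103 counts came from WT replicate 3. Kcnk9, a background channel, had counts of 14, 6 and 20 across G328V against 0, 0 and 4 across WT, and was also higher in each G328V library. Both were named after their values were seen, and both stayed under 1 CPM. Exons of 26 of the 80 genes overlap those of another annotated gene, and in 6 (Kcna6, Kcnj3, Kcnk2, Kcnk4 and Kcnmb4 among them) the overlap covers at least 10% of exon bases.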

How the data were processed

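RNA-seq of 6 neurosphere libraries was analysed, 3 labelled ACVR1 G328V and 3 labelled ACVR1 WT. Per the submitters' processing notes mm10 was used with TopHat2 2.0.13, Bowtie2 2.2.1 and FastQC 0.11.3, whose roles are unstated. The authors deposited an HTSeq table of whole-number counts per gene symbol and a Cufflinks table of estimated counts, both not normalized. How reads were counted, with which annotation and strand, was not given in the sources used here. Which libraries were prepared with the TruSeq kit and which with the Pico kit was not given either. The part of the kit in differences between libraries or groups was therefore not tested. Libraries held 115953495 to 191115532 counts.

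G328V was compared with WT on the counts by edgeR 4.0.16 under R 4.3.3 (legacy quasi-likelihood fit, robust, TMM, filterByExpr with a minimum count of 10) over 14643 genes with Benjamini-Hochberg adjustment, and no covariate. Standard errors follow from the F statistic and the log2 difference. As alternatives DESeq2 1.42.0, limma 3.58.1 (voom), other scalings and filters, the rounded Cufflinks counts, a replicate block and leaving out each library were run. DESeq2 left the adjusted p of 1030 genes as NA, 15 of them potassium channel genes. The scripts were tested on simulated data. Exon lengths and overlaps came from GENCODE M21 (GRCm38) and promoters from RefSeq.

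The members and lists were chosen with earlier results of these data known. Named were, per class, the 2 tested genes with the highest mean level per kilobase, genes with an unadjusted edgeR p or a DESeq2 adjusted p under 0.05, genes of at least 1 CPM whose groups do not overlap, the 5 of at least 1 CPM with the largest share in 1 library, and Kcnj10, Kcnj16, Kcnj2, Kcnn4, Kcnma1, Kcnh2, Kcnk2 and Kcnip3. Some genes this rule names are not reported here. Kcnmb4 and the genes below the filter were named after their values were seen, others where counts or lists are described. Limits set at 3 counts cover only the error of counting, and they take each count as an independent event. Library totals were 115953495 to 191115532 by HTSeq and 60086062 to 99192248 by Cufflinks. Whether an HTSeq count stands for a read or a fragment was not given, so these limits may be too low.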

Additional observations from a re-analysis of the deposited data

How the results depend on the processing

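Over 15 alternatives, edgeR and limma-voom called 0 potassium channel genes at an adjusted p under 0.05, and DESeq2 called 1, with 173 calls over all genes. At an unadjusted p under 0.05 edgeR counted 4, the edgeR 4 fit 7 and DESeq2 8, where 4.06%, 6.11% and 6.55% of all genes were counted, and leaving out each library gave 2 to 10 (3.01% to 6.75% of all genes). Genes whose groups do not overlap numbered 6, and 9 to 22 when each library was left out, where the share over all genes went from 9.70% to between 16.8% and 23.4%. DESeq2's calls ranged from 0 to 8 when each library was left out, an alternative chosen after seeing the data. The median log2 difference was -0.16, and 0.82 with limma-voom, and ranged from -0.58 to 1.91 when each library was left out. A fit with the replicate number as a block gave a median of 0.15 and 0 calls. Libraries sharing the numbers 1 and 3 had deviations correlated at 0.163 and 0.244, but G328V replicate 2 and WT replicate 1 at 0.175, and only 2 numbers are shared, so the numbers were not taken as pairs. With the block Kcnab1, Kcnh1, Kcnh2, Kcnn4 and Kcnu1 turned to 2.02, 0.15, 0.46, 1.70 and 1.82. With limma-voom Kcnb2, Kcnc1, Kcnd3, Kcnj10, Kcnma1 and Kcnu1 turned to 0.67, 1.86, 4.18, 1.46, 0.74 and 0.89, and Kcnk5 to -0.0044. When each library was left out, the log2 difference ranged from -6.86 to 8.05 for Kcnb2, -3.76 to 5.20 for Kcnc1, -5.21 to 10.9 for Kcnd3, -2.04 to 2.37 for Kcnip3, -8.00 to 10.01 for Kcnj10, -0.19 to 2.75 for Kcnj2, -3.90 to 0.59 for Kcnk1, -0.70 to 1.45 for Kcnk5, -4.55 to 3.78 for Kcnma1 and -2.12 to 0.58 for Kcnu1. Total-count scaling moved the median of all genes to 0.115, and the potassium channel genes stood at -0.076 there. The cause was not tested. At these depths the spread between libraries limited precision more than counting error did.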

Other observations

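The Cufflinks table lists 12 further genes that the symbol rule matches and the HTSeq table does not hold. Of these Kcnj13, an inward rectifier, had estimated fragment counts of 18, 10 and 119 in G328V and of 37, 10 and 64 in WT, and its groups overlapped. The others had at most 25 estimated fragments in any library.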
